A study of Mus musculus with 12 samples.

Results

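The genes described here encode the enzymes and regulators of cholesterol and fatty acid synthesis, and their messenger RNA was followed in mouse hepatocytes through acute toxic liver injury with and without the Hippo pathway effectors YAP and TAZ. They were taken by symbol: 35 genes of the 37141 rows in the count table, split into a sterol arm of 20 genes and a fatty acid arm of 15 genes. Of the 35 genes, 34 passed the filter on low counts and were tested among 10780 genes. Idi1, which isomerises isopentenyl diphosphate, held 9 counts over all 12 libraries, at most 3 in any library, and was not tested.

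The liver makes cholesterol from acetyl-CoA through mevalonate, squalene and lanosterol, and builds fatty acids from the same acetyl-CoA by way of malonyl-CoA. Transcription of the sterol arm is driven mainly by SREBP-2 (Srebf2) and that of the fatty acid arm by SREBP-1c (Srebf1) and by the glucose-responsive factor ChREBP (Mlxipl). SREBP proteins leave the endoplasmic reticulum with their escort SCAP when sterols are low and are held back by INSIG proteins when sterols are high. Hepatocytes are the main site of both pathways, and YAP (Yap1) and TAZ (Wwtr1) are transcriptional coactivators that are best known for control of liver size and regeneration.

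The study asked how hepatocytes lacking YAP and TAZ respond to acute liver injury. All 12 libraries came from mice with floxed alleles of both genes (Yapflox/flox; Tazflox/flox), in 4 groups of 3 libraries each. Yap/Taz KO + CCl4 mice received 5e+11 genome copies of an adeno-associated virus (AAV8) carrying Cre under the hepatocyte-specific TBG promoter, then after 3 weeks an intraperitoneal dose of 1 ml/kg carbon tetrachloride (CCl4) in corn oil, and hepatocytes were taken after a further 48 h. The ctrl + CCl4 group had the same floxed alleles and CCl4 but no Cre, the Yap/Taz KO group had Cre for 3 weeks and no CCl4, and the ctrl group had neither. The labels name no control virus for the groups without Cre, so the effect of Cre deletion and that of the virus cannot be told apart. The labels also name no oil injection for the groups without CCl4, so the effects of CCl4 and of the oil injection cannot be told apart. They give no age or sex and do not say whether each library is a separate animal, so the p-values speak to differences among these libraries, which could be technical.

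Each library held 3' tags from 500000 hepatocytes sorted by flow cytometry, with a total of 1617761 to 3028951 counts. Replicate 3 of ctrl had the lowest total and the fewest genes detected (11281). Levels are given as counts scaled to library size (CPM) with TMM factors. Yap1 averaged 14.5 ± 0.313 CPM in Yap/Taz KO + CCl4 and 56.6 ± 8.02 CPM in ctrl + CCl4, and 15.6 ± 6.30 CPM in Yap/Taz KO and 58.0 ± 16.1 CPM in ctrl (SD, n = 3). Wwtr1 averaged 23.3 ± 2.97 CPM in Yap/Taz KO + CCl4 and 33.7 ± 1.08 CPM in ctrl + CCl4, and 14.7 ± 4.18 CPM in Yap/Taz KO and 38.9 ± 17.1 CPM in ctrl. For both genes every library with Cre lay below every library without it in the same injury state. Tags read the 3' end of a transcript, and the labels do not say whether that end lies in the deleted part. All 9 hepatocyte markers were detected in every group, and they summed to 80935 to 100936 CPM in Yap/Taz KO + CCl4 and 58466 to 76749.9 CPM in ctrl + CCl4, and to 107317 to 136733 CPM in Yap/Taz KO and 97714 to 130952 CPM in ctrl. Markers of other cells were also present: the 12 macrophage and Kupffer cell genes summed to 2019 to 3050.0 CPM in Yap/Taz KO + CCl4 and 2502 to 4388 CPM in ctrl + CCl4, and to 239 to 1151 CPM in Yap/Taz KO and 516 to 2795 CPM in ctrl. The 10 stellate cell genes summed to 1696 to 1901 CPM in Yap/Taz KO + CCl4 and 1137 to 2131 CPM in ctrl + CCl4, and to 309.8 to 842 CPM in Yap/Taz KO and 327 to 1441 CPM in ctrl. The 9 monocyte and neutrophil genes summed to 174 to 248 CPM in Yap/Taz KO + CCl4 and 201 to 348 CPM in ctrl + CCl4, and to 7.24 to 24.4 CPM in Yap/Taz KO and 23.7 to 116 CPM in ctrl. For these 3 lists every Yap/Taz KO + CCl4 library lay above every Yap/Taz KO library, while ctrl + CCl4 overlapped ctrl in the macrophage and stellate lists. The 10 endothelial genes summed to 716 to 959 CPM in Yap/Taz KO + CCl4 and 661 to 836 CPM in ctrl + CCl4, and to 357 to 926 CPM in Yap/Taz KO and 443 to 1796 CPM in ctrl. The 9 cholangiocyte genes summed to 98.3 to 227 CPM in Yap/Taz KO + CCl4 and 389 to 464 CPM in ctrl + CCl4, and to 47.1 to 87.7 CPM in Yap/Taz KO and 44.1 to 80.2 CPM in ctrl. The 7 erythroid genes summed to 72.7 to 94.7 CPM in Yap/Taz KO + CCl4 and 31.6 to 119 CPM in ctrl + CCl4, and to 19.8 to 56.2 CPM in Yap/Taz KO and 19.6 to 1586 CPM in ctrl. Of the defining markers named here, Csf3r was at 0 in Yap/Taz KO, and Alas2 was at 0 in Yap/Taz KO + CCl4, ctrl + CCl4 and Yap/Taz KO. Replicate 1 of ctrl stood apart, with the highest ctrl level of the macrophage, stellate, endothelial and erythroid genes. In such bulk libraries fewer cells of a type and less RNA per cell cannot be told apart.

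Acacb, Acss2, Tm7sf2 and Insig1 had the smallest edgeR adjusted p of their arm with injury in control hepatocytes, among genes with a promoter window. Promoter sequences are shown for these genes and for Hmgcs1 and Mlxipl, whose windows hold the letters of a sterol regulatory element. They come from RefSeq (GRCm38.p6), and capitals mark TCACNCCAC, the core of the sterol regulatory element that SREBP proteins bind, CCAAT, bound by NF-Y, and GGGCGG, bound by Sp1, on either strand. All are written 5′ to 3′ on the strand of the gene. In the fatty acid arm, Acacb (acetyl-CoA carboxylase 2) is shown at chr5:114165338-114165517 on the plus strand, Acss2 (cytosolic acetyl-CoA synthetase) at chr2:155517863-155517947 on the plus strand, and Mlxipl at chr5:135106711-135106890 on the plus strand. The Acss2 stretch ends where the GENCODE gene begins, and those of Acacb and Mlxipl lie before a RefSeq start inside the GENCODE span of the gene.
Acacb: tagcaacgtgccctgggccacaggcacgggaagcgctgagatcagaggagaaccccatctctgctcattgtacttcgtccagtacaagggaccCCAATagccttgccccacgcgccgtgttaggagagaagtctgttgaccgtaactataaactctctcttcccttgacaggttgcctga
Acss2: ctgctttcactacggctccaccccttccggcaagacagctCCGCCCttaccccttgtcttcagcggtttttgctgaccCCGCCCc
Mlxipl: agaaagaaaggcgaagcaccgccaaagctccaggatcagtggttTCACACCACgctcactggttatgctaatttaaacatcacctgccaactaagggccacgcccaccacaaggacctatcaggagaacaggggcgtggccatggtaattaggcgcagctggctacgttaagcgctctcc

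In the sterol arm, Hmgcs1 (the synthase before the rate-limiting step of the mevalonate pathway) is shown at chr13:119690171-119690350 on the plus strand, Insig1 (a sterol-dependent retainer of SREBP) at chr5:28071232-28071362 on the plus strand, and Tm7sf2 (a sterol C14 reductase) at chr19:6067851-6068030 on the minus strand, before a RefSeq start inside the GENCODE span.
Hmgcs1: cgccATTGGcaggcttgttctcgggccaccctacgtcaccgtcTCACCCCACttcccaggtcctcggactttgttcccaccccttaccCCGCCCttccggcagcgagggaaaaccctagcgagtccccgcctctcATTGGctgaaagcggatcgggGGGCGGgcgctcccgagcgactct
Insig1: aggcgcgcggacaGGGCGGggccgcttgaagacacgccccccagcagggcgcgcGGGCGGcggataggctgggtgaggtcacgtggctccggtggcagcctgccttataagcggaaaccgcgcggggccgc
Tm7sf2: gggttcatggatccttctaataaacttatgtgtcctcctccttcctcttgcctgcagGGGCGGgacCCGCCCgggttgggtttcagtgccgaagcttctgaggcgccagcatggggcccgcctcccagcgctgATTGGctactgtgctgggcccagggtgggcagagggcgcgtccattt

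Windows of 300 bases, 250 before and 50 after the start, were in the RefSeq table for 29 of the 35 genes. CCAAT on either strand was found in 16 of 16 sterol arm genes and in 10 of 13 fatty acid arm genes (76.9%), against 42.7% of the tested genes that have a window and 41.1% of all genes with one. Some genes had several windows, and a gene counted if any of them held the letters. By window, CCAAT was in 84.2% of sterol arm and 64.7% of fatty acid arm windows, against 37.4% of those of tested genes. GGGCGG was found in 15 of 16 sterol arm genes (93.8%) and 7 of 13 fatty acid arm genes (53.8%), against 68.6% of the tested genes. The E box CACGTG, which is shared by SREBP, ChREBP and many other factors, was in 4 of 16 sterol arm genes (25%) and 2 of 13 fatty acid arm genes (15.4%), against 11.8% of the tested genes. TCACNCCAC was found in a window of Hmgcs1 and of Mlxipl, at -137 and -136 bases from the RefSeq start, and in 1.44% of all genes with a window. In Mlxipl that RefSeq start lies inside the gene, and the window at the gene start did not hold these letters. The looser TCACNCNAC, which includes TCACNCCAC, was also in Nsdhl and in 3.15% of all genes. Motifs were searched one by one, so a base shared by matches to GGGCGG and CCAAT counts for both, and a window without a match says only that these letters are not in it.

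With injury, most genes of both arms had negative log2 fold changes in both genotypes. In the sterol arm these were 18 of 19 genes in each genotype. In the fatty acid arm they were 13 of 15 genes in knockout and 14 of 15 in control hepatocytes. Of all 10780 genes tested, 5204 were negative in knockout and 5208 in control hepatocytes. Fewer sterol genes passed the test in knockout than in control hepatocytes. In knockout hepatocytes (Yap/Taz KO + CCl4 over Yap/Taz KO), 11 of 15 fatty acid genes and 6 of 19 sterol genes fell and none rose (edgeR adjusted p under 0.05), where 8.35% of the genes tested were called lower and 9.42% higher. In control hepatocytes (ctrl + CCl4 over ctrl), 14 of 15 fatty acid genes and 15 of 19 sterol genes fell and none rose, where 12% of the genes tested were called lower, of 22.5% called in either direction. The median log2 fold change of the fatty acid arm was -1.61 in knockout and -1.88 in control hepatocytes, that of the sterol arm -0.64 in knockout and -0.94 in control hepatocytes, and that of all genes tested 0.03 in both. The 3 injured libraries all lay below the 3 uninjured ones for 15 sterol and 11 fatty acid genes in knockout hepatocytes (18.1% of the genes tested), and for 15 sterol and 13 fatty acid genes in control hepatocytes (17.5% of the genes tested, of 36.7% without overlap in either direction). The 9 hepatocyte markers had a median log2 fold change of -0.82 in knockout and -0.97 in control hepatocytes, with 3 called lower in knockout and 6 in control hepatocytes, and Hpx called higher in both. Called higher among markers of other cells were 4 of 12 macrophage, 8 of 8 monocyte and neutrophil and 5 of 10 stellate genes in knockout hepatocytes, and 3 macrophage, 5 monocyte and neutrophil and 3 stellate genes in control hepatocytes. Of 3 tested cholangiocyte genes 1 was called higher in each genotype, and none of 10 endothelial genes was called in either. The 4 tested erythroid genes had a median log2 fold change of 0.85 with none called in knockout hepatocytes, and of -2.91 with 2 called lower in control hepatocytes. Their part in the fall of both arms was not tested.

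These counts depend on how libraries were scaled. With library totals in place of TMM factors the median of all genes shifted by 0.37 in knockout and 0.36 in control hepatocytes, and the calls lower were 8 fatty acid and 1 sterol genes in knockout and 9 fatty acid and 3 sterol genes in control hepatocytes. The sterol arm count in control hepatocytes was 5 without ctrl + CCl4 replicate 2 or 3, 7 without ctrl replicate 3 and 11 without ctrl replicate 1, the library that stood apart. In knockout hepatocytes it was 3 without Yap/Taz KO + CCl4 replicate 1 or 2, 2 without replicate 3 of that group and 2 without Yap/Taz KO replicate 3. No call of a member changed direction in any of these fits.

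**Figure D1:**
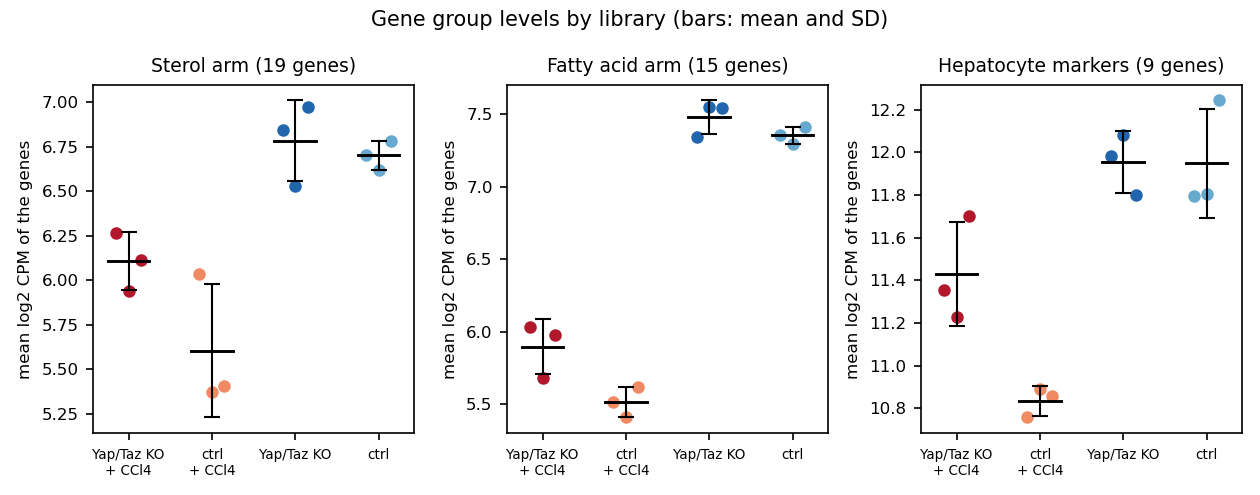
Mean log2 CPM of the sterol arm (19 genes) and the fatty acid arm (15 genes) in each library of the 4 groups, with markers of hepatocytes beside them. Points are libraries and bars the mean and SD (n = 3). The fatty acid arm lies between 5.41 and 6.04 in all injured libraries and between 7.30 and 7.55 in all uninjured ones.

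As a mean over genes, the level of the fatty acid arm in log2 CPM was 5.90 ± 0.19 in Yap/Taz KO + CCl4 and 5.51 ± 0.10 in ctrl + CCl4, against 7.48 ± 0.12 in Yap/Taz KO and 7.36 ± 0.06 in ctrl (SD, n = 3). That of the sterol arm in log2 CPM was 6.11 ± 0.16 in Yap/Taz KO + CCl4 and 5.60 ± 0.37 in ctrl + CCl4, against 6.78 ± 0.23 in Yap/Taz KO and 6.70 ± 0.08 in ctrl. The 2 injured groups were lower than both uninjured groups in each arm, with no overlap between libraries.

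**Figure D2:**
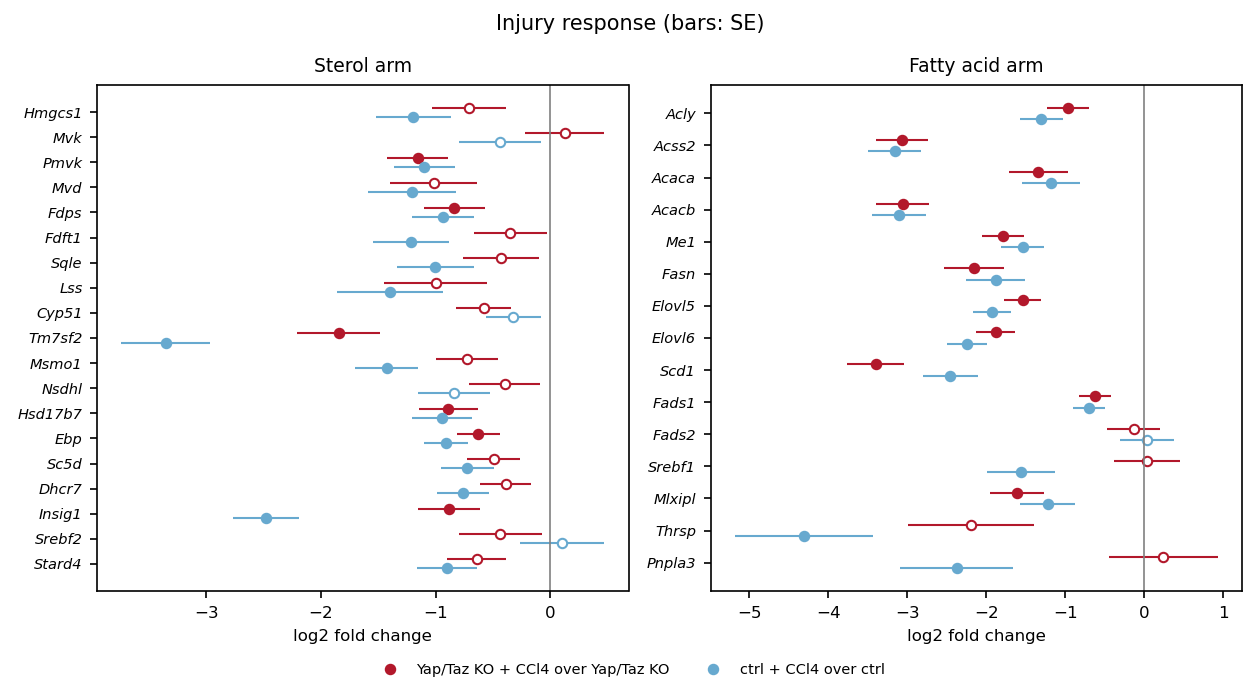
Log2 fold change with injury of each of the 34 tested genes in knockout and in control hepatocytes, by arm, with bars for the SE. Filled points passed an edgeR adjusted p of 0.05. Most points lie left of 0. In control hepatocytes 16 of 19 sterol and 9 of 15 fatty acid points lie farther left than in knockout hepatocytes. Among them are Tm7sf2, Insig1, Srebf1, Thrsp and Pnpla3. None of these differences between genotypes passed an edgeR adjusted p of 0.05.

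Of the mevalonate steps, 2 of 5 tested genes fell in knockout hepatocytes (Pmvk and Fdps) and 4 of 5 in control hepatocytes (Hmgcs1, Pmvk, Mvd and Fdps). Hmgcs1, which makes HMG-CoA, had 636, 288 and 332 CPM in Yap/Taz KO + CCl4 and 378, 196 and 185 CPM in ctrl + CCl4. Hmgcs1 was at 787, 579.5 and 685 CPM in Yap/Taz KO and 531, 695 and 511 CPM in ctrl. All 3 ctrl + CCl4 libraries were below ctrl, while 1 Yap/Taz KO + CCl4 library was inside the range of Yap/Taz KO. The log2 fold change was -0.71 ± 0.32 (adjusted p = 0.15) in knockout hepatocytes, which did not pass, and -1.20 ± 0.33 (SE; edgeR adjusted p = 0.016) in control hepatocytes. Pmvk, the phosphomevalonate kinase, had 40.4, 30.01 and 25.4 CPM in Yap/Taz KO + CCl4 and 33.7, 24.1 and 28.7 CPM in ctrl + CCl4. Pmvk was at 71.5, 71.4 and 71.1 CPM in Yap/Taz KO and 81.9, 41.8 and 61.1 CPM in ctrl. Its injured libraries lay below the uninjured ones in both genotypes, with a log2 fold change of -1.16 ± 0.27 (adjusted p = 0.0075) in knockout and -1.10 ± 0.27 (SE; edgeR adjusted p = 0.00853) in control hepatocytes. Fdps, which makes farnesyl diphosphate for sterols and for protein prenylation, had 71.3, 50.2 and 54.6 CPM in Yap/Taz KO + CCl4 and 45.05, 22.3 and 29.3 CPM in ctrl + CCl4. Fdps was at 95.3, 108 and 112 CPM in Yap/Taz KO and 73.6, 46.3 and 64.7 CPM in ctrl. Libraries of the injured and uninjured groups did not overlap in either genotype, and both Cre groups were above their counterparts without Cre. With injury Fdps fell, with a log2 fold change of -0.84 ± 0.27 (adjusted p = 0.0413) in knockout and -0.94 ± 0.27 (SE; edgeR adjusted p = 0.0225) in control hepatocytes. Mvd, the mevalonate diphosphate decarboxylase, had 14.5, 12.01 and 15.1 CPM in Yap/Taz KO + CCl4 and 19.4, 11.6 and 10.6 CPM in ctrl + CCl4. Mvd was at 23.8, 15.9 and 44.3 CPM in Yap/Taz KO and 37.8, 35.7 and 21.3 CPM in ctrl. It was called in control hepatocytes, at -1.20 ± 0.38 (SE; edgeR adjusted p = 0.0347), and not in knockout hepatocytes, at -1.02 ± 0.38 (adjusted p = 0.0808), although the libraries did not overlap in either. Mvk, the mevalonate kinase, was called in neither, with 0.12 ± 0.35 (adjusted p = 0.854) in knockout and -0.44 ± 0.36 (SE; edgeR adjusted p = 0.417) in control hepatocytes.

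The calls of Pmvk held without any 1 library. In control hepatocytes the adjusted p went above 0.05 for Hmgcs1 without ctrl + CCl4 replicate 2 or 3 or ctrl replicate 2 (0.0566 to 0.0881), Fdps without ctrl + CCl4 replicate 2 or 3 or ctrl replicate 1 or 3 (0.0571 to 0.113) and Mvd without Yap/Taz KO + CCl4 replicate 1, ctrl + CCl4 replicate 2 or 3 or ctrl replicate 1 or 2 (0.0525 to 0.141) by the same edgeR test. In knockout hepatocytes it did so for Fdps without Yap/Taz KO + CCl4 replicate 1 or 2 or 3, ctrl + CCl4 replicate 3 or Yap/Taz KO replicate 1 or 2 or 3 (0.0554 to 0.144). A predicted gene overlaps Fdps on the same strand, so its counts are uncertain.

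All 3 genes from squalene to lanosterol fell in control hepatocytes, and 0 of 3 passed in knockout hepatocytes. Fdft1, squalene synthase, had 39.1, 33.5 and 39.6 CPM in Yap/Taz KO + CCl4 and 35.2, 19.8 and 12.9 CPM in ctrl + CCl4. Fdft1 was at 40.6, 41.98 and 60.04 CPM in Yap/Taz KO and 39.9, 50.3 and 68.2 CPM in ctrl. Injured libraries lay below uninjured ones in both genotypes, but the log2 fold change was -0.35 ± 0.32 (adjusted p = 0.504) in knockout and -1.22 ± 0.33 (SE; edgeR adjusted p = 0.0156) in control hepatocytes. Sqle, the squalene epoxidase, had 62.8, 60.03 and 67.8 CPM in Yap/Taz KO + CCl4 and 60.8, 36.00 and 50.9 CPM in ctrl + CCl4. Sqle was at 73.1, 50.7 and 133 CPM in Yap/Taz KO and 77.3, 80.5 and 139 CPM in ctrl. Knockout libraries overlapped and control libraries did not, with -0.43 ± 0.33 (adjusted p = 0.411) in knockout and -1.003 ± 0.33 (SE; edgeR adjusted p = 0.0425) in control hepatocytes. Lss, the lanosterol synthase, had 22.7, 8.85 and 22.6 CPM in Yap/Taz KO + CCl4 and 17.6, 13.4 and 7.41 CPM in ctrl + CCl4. Lss was at 50.4, 18.8 and 39.6 CPM in Yap/Taz KO and 29.6, 22.1 and 50.5 CPM in ctrl. Its libraries overlapped in the knockout, at -1.001 ± 0.45 (adjusted p = 0.145), and were separate in the control, at -1.40 ± 0.46 (SE; edgeR adjusted p = 0.0421). Without 1 library the control calls were lost, with the edgeR adjusted p in brackets, for Fdft1 without ctrl + CCl4 replicate 2 or 3 or ctrl replicate 3 (0.0657 to 0.07696), Sqle without Yap/Taz KO + CCl4 replicate 1 or 2 or 3, ctrl + CCl4 replicate 1 or 2 or 3, Yap/Taz KO replicate 1 or ctrl replicate 3 (0.05004 to 0.199) and Lss without Yap/Taz KO + CCl4 replicate 1 or 3, ctrl + CCl4 replicate 2 or 3, Yap/Taz KO replicate 3 or ctrl replicate 3 (0.0524 to 0.178). Fdft1 overlaps Ctsb, which lies on the other strand, and the sources do not state whether the counting used strand.

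Past lanosterol, 3 of 8 genes fell in knockout hepatocytes (Tm7sf2, Hsd17b7 and Ebp) and 6 of 8 in control hepatocytes (the same 3 with Msmo1, Dhcr7 and Sc5d). Tm7sf2 had 25.3, 17.4 and 27.3 CPM in Yap/Taz KO + CCl4 and 14.7, 10.4 and 8.05 CPM in ctrl + CCl4. Tm7sf2 was at 104, 71.9 and 76.2 CPM in Yap/Taz KO and 109.8, 55.4 and 174 CPM in ctrl. Every injured library was below every uninjured one, and the 3 ctrl + CCl4 libraries were the lowest of all 12. Its log2 fold change of -1.85 ± 0.36 (adjusted p = 0.00271) in knockout and -3.35 ± 0.39 (SE; edgeR adjusted p = 3.38e-05) in control hepatocytes was the largest fall of the sterol arm in each, but Vps51 overlaps it on the same strand, so its counts are uncertain. Msmo1, the methylsterol monooxygenase that removes C4 methyl groups, had 185, 146 and 189 CPM in Yap/Taz KO + CCl4 and 171, 82.1 and 83.8 CPM in ctrl + CCl4. Msmo1 was at 282, 250.4 and 327 CPM in Yap/Taz KO and 251, 329 and 326 CPM in ctrl. It did not pass in knockout hepatocytes, at -0.73 ± 0.27 (adjusted p = 0.0805), and fell in control hepatocytes, at -1.43 ± 0.28 (SE; edgeR adjusted p = 0.0019), with no overlap in either. Ebp, the sterol isomerase, had 341, 324 and 371 CPM in Yap/Taz KO + CCl4 and 263, 347 and 257 CPM in ctrl + CCl4. Ebp was at 477, 525 and 597 CPM in Yap/Taz KO and 510.5, 548 and 572 CPM in ctrl. Injured and uninjured libraries were separate in both genotypes, with a log2 fold change of -0.63 ± 0.19 (adjusted p = 0.0329) in knockout and -0.91 ± 0.19 (SE; edgeR adjusted p = 0.00318) in control hepatocytes. Hsd17b7, which encodes the 3-ketosteroid reductase of this pathway, had 66.6, 79.9 and 63.1 CPM in Yap/Taz KO + CCl4 and 72.5, 44.8 and 50.9 CPM in ctrl + CCl4. Hsd17b7 was at 116, 114 and 158 CPM in Yap/Taz KO and 74.5, 123 and 127 CPM in ctrl. Injured libraries were below uninjured ones in both genotypes, at -0.89 ± 0.26 (adjusted p = 0.0267) in knockout and -0.94 ± 0.26 (SE; edgeR adjusted p = 0.0167) in control hepatocytes.

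Dhcr7 and Sc5d, a reductase and a desaturase of the last steps, fell in control hepatocytes, with log2 fold changes of -0.76 ± 0.23 (adjusted p = 0.0248) and -0.72 ± 0.23 (SE; edgeR adjusted p = 0.0338). In knockout hepatocytes they were at -0.39 ± 0.22 (adjusted p = 0.262) and -0.49 ± 0.23 (SE; edgeR adjusted p = 0.156) and did not pass. Cyp51, the lanosterol demethylase, and Nsdhl, which acts with Msmo1 in the removal of C4 methyl groups, were called in neither genotype. Cyp51 was at -0.58 ± 0.24 (adjusted p = 0.11) in knockout and -0.32 ± 0.24 (SE; edgeR adjusted p = 0.372) in control hepatocytes. Nsdhl was at -0.40 ± 0.31 (adjusted p = 0.416) in knockout and -0.84 ± 0.31 (SE; edgeR adjusted p = 0.0689) in control hepatocytes, where ctrl + CCl4 replicate 1 had 71.8 CPM against 23.2 and 40.3 CPM in the other libraries of its group. Tm7sf2 in both genotypes, and Msmo1 and Ebp in control hepatocytes, were called without any 1 library. In control hepatocytes the adjusted p went above 0.05 (edgeR, range in brackets) for Hsd17b7 without ctrl + CCl4 replicate 2 or 3 or ctrl replicate 2 or 3 (0.0583 to 0.0843), Dhcr7 without ctrl + CCl4 replicate 2 or 3 or ctrl replicate 1 or 3 (0.0513 to 0.124) and Sc5d without ctrl + CCl4 replicate 2 or 3 or ctrl replicate 1 or 2 or 3 (0.0518 to 0.1603). In knockout hepatocytes it did so for Hsd17b7 without Yap/Taz KO + CCl4 replicate 1 or 3 or Yap/Taz KO replicate 3 (0.0932 to 0.108) and Ebp without Yap/Taz KO + CCl4 replicate 1 or 2 or 3 or Yap/Taz KO replicate 2 or 3 (0.05598 to 0.117). Cyp51 overlaps Akap9 on the other strand.

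Among the sterol sensing and transport genes, Insig1, itself a target of SREBP, fell in both genotypes. It had 40.7, 36.02 and 41.5 CPM in Yap/Taz KO + CCl4 and 28.6, 14.3 and 21.9 CPM in ctrl + CCl4. Insig1 was at 83.9, 53.6 and 80.9 CPM in Yap/Taz KO and 98.7, 109 and 154 CPM in ctrl. The 4 groups did not overlap in any of these comparisons: Yap/Taz KO + CCl4 lay above ctrl + CCl4, and Yap/Taz KO lay below ctrl. Insig1 fell, with a log2 fold change of -0.88 ± 0.27 (adjusted p = 0.0364) in knockout and -2.48 ± 0.29 (SE; edgeR adjusted p = 3.27e-05) in control hepatocytes. Stard4, a carrier of cholesterol between membranes, had 85.9, 83.1 and 76.6 CPM in Yap/Taz KO + CCl4 and 89.00, 48.8 and 72.8 CPM in ctrl + CCl4. Stard4 was at 98.6, 116 and 169 CPM in Yap/Taz KO and 115, 118 and 161 CPM in ctrl. Its libraries were separate in both genotypes, but it passed in control hepatocytes, at -0.90 ± 0.26 (SE; edgeR adjusted p = 0.0221), and not in knockout hepatocytes, at -0.64 ± 0.26 (adjusted p = 0.104). Srebf2 was called in neither, with -0.44 ± 0.36 (adjusted p = 0.454) in knockout and 0.10 ± 0.37 (SE; edgeR adjusted p = 0.883) in control hepatocytes. Its ctrl libraries had 39.9, 38.2 and 12.1 CPM, so replicate 3, the library with the lowest total, was well below the others of its group, at 17 counts. The control call of Insig1 held without any 1 library. The knockout call was lost for Insig1 without Yap/Taz KO + CCl4 replicate 1 or 2 or 3, ctrl + CCl4 replicate 3 or Yap/Taz KO replicate 1 or 3 (0.05505 to 0.118), and the control call for Stard4 without ctrl + CCl4 replicate 2 or 3 or ctrl replicate 3 (0.0671 to 0.1100), with edgeR adjusted p in brackets.

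**Figure D3:**
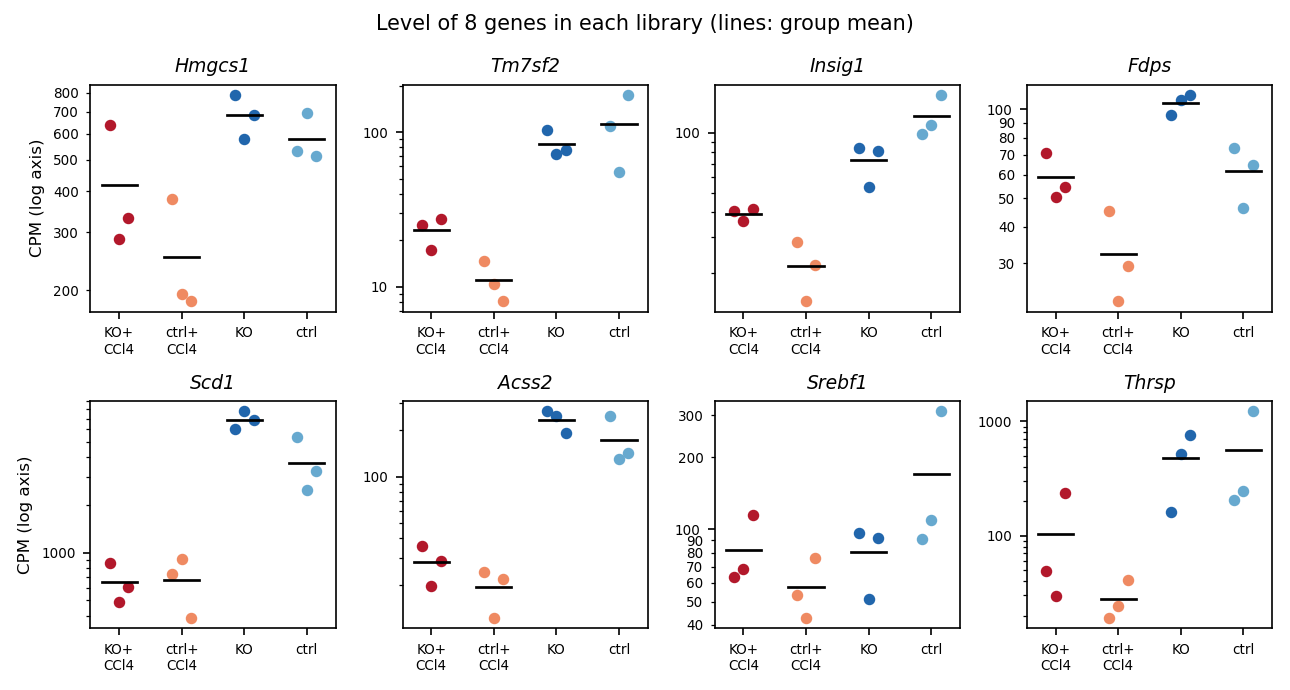
CPM of 8 genes in each library of the 4 groups, on log axes, with points for libraries and lines for group means; upper panels show sterol arm genes and lower panels fatty acid arm genes. Acss2 and Scd1 are low in every injured library, while Srebf1 in Yap/Taz KO + CCl4 (63.4 to 115 CPM) overlaps Yap/Taz KO (51.1 to 96.9 CPM).

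All 5 enzymes that supply acetyl-CoA, malonyl-CoA and NADPH fell in both genotypes, and the 2 largest falls, those of Acss2 and Acacb, had close values in both. Acss2 had 35.7, 19.6 and 28.6 CPM in Yap/Taz KO + CCl4 and 24.2, 12.2 and 21.9 CPM in ctrl + CCl4. Acss2 was at 265, 246 and 193 CPM in Yap/Taz KO and 246, 129 and 143 CPM in ctrl. Acacb, whose product malonyl-CoA at mitochondria restrains fatty acid oxidation, had 7.58, 9.79 and 7.22 CPM in Yap/Taz KO + CCl4 and 9.52, 3.66 and 8.05 CPM in ctrl + CCl4. Acacb was at 77.4, 73.3 and 54.9 CPM in Yap/Taz KO and 70.3, 69.4 and 41.2 CPM in ctrl. For both genes every injured library was several times lower than every uninjured one. Acss2 fell, with a log2 fold change of -3.07 ± 0.33 (adjusted p = 2.42e-05) in knockout and -3.15 ± 0.34 (SE; edgeR adjusted p = 1.65e-05) in control hepatocytes. Acacb fell, at -3.06 ± 0.34 (adjusted p = 3.00e-05) in knockout and -3.10 ± 0.34 (SE; edgeR adjusted p = 2.33e-05) in control hepatocytes. Me1, the malic enzyme that yields cytosolic NADPH, had 29.7, 29.7 and 30.5 CPM in Yap/Taz KO + CCl4 and 20.5, 23.5 and 34.2 CPM in ctrl + CCl4. Me1 was at 75.3, 126 and 108 CPM in Yap/Taz KO and 75.3, 94.6 and 56.9 CPM in ctrl. Its fall was -1.78 ± 0.27 (adjusted p = 0.000385) in knockout and -1.54 ± 0.27 (SE; edgeR adjusted p = 0.000921) in control hepatocytes, with no overlap of libraries. Acly, which cleaves citrate to cytosolic acetyl-CoA, had 149, 93.5 and 165 CPM in Yap/Taz KO + CCl4 and 125, 85.4 and 119.8 CPM in ctrl + CCl4. Acly was at 246, 268 and 279 CPM in Yap/Taz KO and 364, 193 and 255 CPM in ctrl. All injured libraries were below all uninjured ones, at -0.96 ± 0.27 (adjusted p = 0.0231) in knockout and -1.30 ± 0.27 (SE; edgeR adjusted p = 0.00325) in control hepatocytes. Acaca, the acetyl-CoA carboxylase that feeds fatty acid synthesis, had 20.8, 24.01 and 14.4 CPM in Yap/Taz KO + CCl4 and 13.6, 26.8 and 21.6 CPM in ctrl + CCl4. Acaca was at 28.7, 65.6 and 55.4 CPM in Yap/Taz KO and 29.2, 47.8 and 65.4 CPM in ctrl. Although it varied within groups, injured and uninjured libraries did not overlap, and it fell, at -1.34 ± 0.37 (adjusted p = 0.0214) in knockout and -1.18 ± 0.37 (SE; edgeR adjusted p = 0.0329) in control hepatocytes.

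Acss2, Acacb and Me1 were called in both genotypes without any 1 library, as was Acly in control hepatocytes. The adjusted p went above 0.05 (edgeR) in knockout hepatocytes for Acly without Yap/Taz KO + CCl4 replicate 1 or 2 or Yap/Taz KO replicate 2 or 3 (0.0562 to 0.102) and Acaca without Yap/Taz KO + CCl4 replicate 1 or 3 or Yap/Taz KO replicate 2 or 3 (0.0641 to 0.102), and in control hepatocytes for Acaca without ctrl + CCl4 replicate 1 or 3 or ctrl replicate 2 or 3 (0.0679 to 0.142). Mipep-ps and a predicted gene overlap Acss2 on the same strand, so its counts are uncertain. Other genes, among them Ggt7 and Gss, overlap Acss2 on the other strand. A predicted gene also overlaps each of Me1 and Acaca on the same strand.

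Chain synthesis, elongation and desaturation fell in 5 of 6 genes in both genotypes: Fasn, Elovl5, Elovl6, Scd1 and Fads1. Scd1, the desaturase that makes oleate and palmitoleate, had 858, 491 and 608 CPM in Yap/Taz KO + CCl4 and 732, 907 and 388 CPM in ctrl + CCl4. Scd1 was at 5973, 7770.2 and 6857 CPM in Yap/Taz KO and 5316, 2491 and 3285 CPM in ctrl. Every injured library was well below every uninjured one, and Yap/Taz KO lay above ctrl. Scd1 fell, with a log2 fold change of -3.40 ± 0.36 (adjusted p = 2.10e-05) in knockout, the largest fall of any of the 34 genes there, and -2.45 ± 0.35 (SE; edgeR adjusted p = 0.000164) in control hepatocytes. Elovl6, which elongates palmitate to stearate, had 51.1, 40.8 and 47.1 CPM in Yap/Taz KO + CCl4 and 40.7, 25.6 and 36.1 CPM in ctrl + CCl4. Elovl6 was at 198, 167 and 146 CPM in Yap/Taz KO and 119.7, 169 and 196 CPM in ctrl. It fell, at -1.88 ± 0.25 (adjusted p = 0.000132) in knockout and -2.24 ± 0.25 (SE; edgeR adjusted p = 2.49e-05) in control hepatocytes, with Yap/Taz KO + CCl4 above ctrl + CCl4 in every library. Elovl5, an elongase of polyunsaturated fatty acids, had 307, 344 and 269.7 CPM in Yap/Taz KO + CCl4 and 298, 153 and 276 CPM in ctrl + CCl4. Elovl5 was at 929, 862 and 884 CPM in Yap/Taz KO and 1045, 854 and 867 CPM in ctrl. The injured libraries were all far below the uninjured ones, at -1.54 ± 0.24 (adjusted p = 0.000474) in knockout and -1.93 ± 0.24 (SE; edgeR adjusted p = 6.11e-05) in control hepatocytes. Fasn, the fatty acid synthase, had 139.8, 91.3 and 127 CPM in Yap/Taz KO + CCl4 and 105, 132 and 83.8 CPM in ctrl + CCl4. Fasn was at 303, 406 and 889 CPM in Yap/Taz KO and 253, 398 and 531 CPM in ctrl. Fasn spread widely within Yap/Taz KO, yet no injured library reached an uninjured one, and the fall was -2.16 ± 0.38 (adjusted p = 0.00123) in knockout and -1.88 ± 0.38 (SE; edgeR adjusted p = 0.00237) in control hepatocytes.

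Fads1, the delta-5 desaturase, fell too, at -0.62 ± 0.20 (adjusted p = 0.0476) in knockout and -0.70 ± 0.20 (SE; edgeR adjusted p = 0.0223) in control hepatocytes. Fads2, the delta-6 desaturase, had 23.7, 34.1 and 31.7 CPM in Yap/Taz KO + CCl4 and 16.5, 27.5 and 23.2 CPM in ctrl + CCl4. Fads2 was at 31.9, 42.9 and 23.4 CPM in Yap/Taz KO and 32.9, 16.6 and 14.9 CPM in ctrl. It overlapped between injured and uninjured libraries in both genotypes and was not called, with -0.13 ± 0.33 (adjusted p = 0.836) in knockout and 0.04 ± 0.34 (SE; edgeR adjusted p = 0.953) in control hepatocytes. Scd1, Elovl5, Elovl6 and Fasn were called in both genotypes without any 1 library. Fads1 was near the threshold: its adjusted p (edgeR) went above 0.05 in knockout hepatocytes without Yap/Taz KO + CCl4 replicate 1 or 2 or 3, ctrl + CCl4 replicate 1 or 2 or 3, Yap/Taz KO replicate 1 or 2 or ctrl replicate 2 (0.0502 to 0.165), and in control hepatocytes without ctrl + CCl4 replicate 1 or 3 or ctrl replicate 3 (0.0522 to 0.08599).

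Of the 4 transcription factors and lipogenic targets, 1 fell in knockout hepatocytes (Mlxipl) and all 4 fell in control hepatocytes. Mlxipl had 41.4, 24.3 and 25.7 CPM in Yap/Taz KO + CCl4 and 16.8, 50.9 and 28.4 CPM in ctrl + CCl4. Mlxipl was at 86.6, 111 and 81.8 CPM in Yap/Taz KO and 66.2, 93.6 and 65.4 CPM in ctrl. It fell in both, at -1.61 ± 0.35 (adjusted p = 0.00491) in knockout and -1.22 ± 0.34 (SE; edgeR adjusted p = 0.019) in control hepatocytes, and injured and uninjured libraries did not overlap. Srebf1 had 63.4, 68.2 and 115 CPM in Yap/Taz KO + CCl4 and 53.1, 42.7 and 76.4 CPM in ctrl + CCl4. Srebf1 was at 96.9, 51.1 and 92.4 CPM in Yap/Taz KO and 90.9, 109 and 311 CPM in ctrl. Injured and uninjured libraries overlapped in the knockout, at 0.04 ± 0.42 (adjusted p = 0.969), and were separate in the control, at -1.56 ± 0.43 (SE; edgeR adjusted p = 0.0168), where ctrl replicate 3 was far above the other libraries. The SREBP-1a and SREBP-1c transcripts share a 3' end, so these tags do not tell them apart, and Rai1 overlaps Srebf1 on the other strand.

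Thrsp, a lipogenic protein also called Spot 14 and a target of ChREBP and SREBP-1c, had 48.6, 29.4 and 235 CPM in Yap/Taz KO + CCl4 and 19.05, 24.1 and 40.9 CPM in ctrl + CCl4. Thrsp was at 161, 517 and 752 CPM in Yap/Taz KO and 203, 247 and 1223 CPM in ctrl. Thrsp spread widely within groups. It fell in control hepatocytes, at -4.31 ± 0.88 (SE; edgeR adjusted p = 0.00268), and did not pass in knockout hepatocytes, at -2.19 ± 0.79 (adjusted p = 0.0705), where replicate 3 of Yap/Taz KO + CCl4 was above replicate 1 of Yap/Taz KO. Pnpla3, a lipid droplet protein induced by feeding, had 19.9, 3.48 and 4.396 CPM in Yap/Taz KO + CCl4 and 5.86, 1.53 and 3.54 CPM in ctrl + CCl4. Pnpla3 was at 9.21, 5.31 and 8.94 CPM in Yap/Taz KO and 22.2, 27.7 and 5.69 CPM in ctrl. Its libraries overlapped in both genotypes, at 0.24 ± 0.69 (adjusted p = 0.858) in knockout and -2.38 ± 0.72 (SE; edgeR adjusted p = 0.0275) in control hepatocytes. Thrsp in control and Mlxipl in knockout hepatocytes were called without any 1 library. The control calls of the others were lost, with the edgeR adjusted p in brackets, for Mlxipl without ctrl + CCl4 replicate 1 or 3 or ctrl replicate 2 (0.0704 to 0.0755), Srebf1 without ctrl + CCl4 replicate 1 or 2 or ctrl replicate 3 (0.0635 to 0.129) and Pnpla3 without ctrl + CCl4 replicate 2 or 3 or ctrl replicate 2 (0.09202 to 0.118).

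Genes next to both pathways were counted against the genes tested, of which 8.35% were called lower in knockout and 12% in control hepatocytes. Of 6 tested genes among 8 listed as further sterol pathway genes, 1 fell in knockout and 2 (Acat1 and Acat2, the acetoacetyl-CoA thiolases) in control hepatocytes, while 2 of the 6 had positive log2 fold changes in each. Acat1 was at -0.95 ± 0.27 (SE; edgeR adjusted p = 0.0181) and Acat2 at -0.79 ± 0.23 (edgeR adjusted p = 0.0228) in control hepatocytes. Of 11 genes of SREBP processing and sterol sensing, 1 fell in knockout hepatocytes, a share near that of all genes tested, and 4 fell in control hepatocytes. The SREBP escort Scap fell in both, at -1.12 ± 0.21 (adjusted p = 0.00193) in knockout and -1.41 ± 0.21 (SE; edgeR adjusted p = 0.000275) in control hepatocytes. Insig2 fell, at -1.10 ± 0.24 (edgeR adjusted p = 0.00425) in control hepatocytes. Of 11 tested genes among 12 further lipogenic enzymes, 4 fell in each genotype, among them Tecr, the enoyl-CoA reductase of elongation, and Elovl2, an elongase of long polyunsaturated fatty acids. Tecr was at -1.23 ± 0.18 (adjusted p = 0.00031) in knockout and -1.05 ± 0.18 (SE; edgeR adjusted p = 0.00077) in control hepatocytes. Elovl2 was at -0.62 ± 0.20 (adjusted p = 0.0435) in knockout and -1.19 ± 0.20 (SE; edgeR adjusted p = 0.000728) in control hepatocytes.

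Of 8 genes of glucose and NADPH supply, 2 fell in knockout hepatocytes, and 3 fell and 1 rose in control hepatocytes. Of all genes tested, 8.35% were called lower and 9.42% higher in knockout hepatocytes, and 12% lower and 10.5% higher in control hepatocytes, so the single gene that rose is near the background. Slc2a2, the glucose transporter GLUT2, fell, at -1.48 ± 0.35 (adjusted p = 0.00959) in knockout and -1.70 ± 0.36 (SE; edgeR adjusted p = 0.00329) in control hepatocytes. G6pdx, the first enzyme of the pentose phosphate pathway, was the gene that rose in control hepatocytes, by 2.34 ± 0.63 (SE; edgeR adjusted p = 0.0156). Of 7 tested genes among 8 of triglyceride synthesis, 4 fell in each genotype. Dgat2, which adds the last acyl chain, fell, at -1.55 ± 0.26 (adjusted p = 0.000869) in knockout and -1.76 ± 0.26 (SE; edgeR adjusted p = 0.000258) in control hepatocytes. The phosphatidate phosphatase Lpin1 fell, at -2.58 ± 0.60 (adjusted p = 0.00785) in knockout and -3.17 ± 0.62 (SE; edgeR adjusted p = 0.00203) in control hepatocytes.

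Between the injured groups, Yap/Taz KO + CCl4 over ctrl + CCl4, sterol arm genes had mostly positive log2 fold changes, but none passed the test. The edgeR test called 0 of the 35 genes and 0 of all genes tested (0%). At an unadjusted p under 0.05 were 613 of all genes tested, 7 sterol and 1 fatty acid arm genes. DESeq2 called 24 genes higher and 1 lower, none of them a member. The log2 fold change was positive in 18 of 19 sterol genes, with a median of 0.47. It was positive in 12 of 15 fatty acid genes, with a median of 0.30, and in 5295 of all 10780 genes, with a median of -0.01. All 3 Yap/Taz KO + CCl4 libraries lay above all 3 ctrl + CCl4 libraries for Mvk, Fdps, Tm7sf2, Dhcr7 and Insig1 of the sterol arm and for Elovl6 and Fads1 of the fatty acid arm, where 8.5% of the genes tested did. The nearest libraries of the 2 groups were almost level for Elovl6 (40.8 against 40.7 CPM) and Fads1 (443 against 441 CPM). No tested member lay below, where 7.81% of the genes tested did. Fdps averaged 58.7 ± 11.1 CPM in Yap/Taz KO + CCl4 and 32.2 ± 11.7 CPM in ctrl + CCl4, a log2 fold change of 0.87 ± 0.27 (SE; edgeR unadjusted p = 0.00585, adjusted p = 0.772). Insig1 averaged 39.4 ± 2.95 CPM in Yap/Taz KO + CCl4 and 21.6 ± 7.12 CPM in ctrl + CCl4, at 0.87 ± 0.28 (SE; edgeR unadjusted p = 0.00723, adjusted p = 0.795). For Tm7sf2 the averages were 23.3 ± 5.25 CPM in Yap/Taz KO + CCl4 and 11.03 ± 3.35 CPM in ctrl + CCl4, at 1.08 ± 0.38 (SE; edgeR unadjusted p = 0.0121, adjusted p = 0.803). Thrsp, with 104 ± 114 CPM in Yap/Taz KO + CCl4 and 28.02 ± 11.5 CPM in ctrl + CCl4, was at 1.89 ± 0.80 (SE; edgeR unadjusted p = 0.0328, adjusted p = 0.852), and among the alternatives run it passed when no low-count filter was applied, at 1.89 (adjusted p = 3.71e-09), against adjusted p of 0.208 to 1.00 in the other alternatives. Its libraries overlapped between these groups, and Yap/Taz KO + CCl4 replicate 3, at 235 CPM, was far above the 48.6 and 29.4 CPM of replicates 1 and 2.

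This pattern moved with single libraries. In ctrl + CCl4, replicate 1 was the highest of its group for 17 of 19 sterol genes and 6 of 15 fatty acid genes. Without that library all 19 sterol genes were positive, with a median of 0.70 and 9 at an unadjusted p under 0.05. Without Yap/Taz KO + CCl4 replicate 1, 16 of 19 sterol genes were positive, with a median of 0.35 and 3 at an unadjusted p under 0.05. The shares of all genes tested are not given for these counts, so a shift of the whole library is not set apart. With library totals 17 of 19 were positive and the median was 0.32. The mean log2 CPM of the 9 hepatocyte markers moved the same way, at 11.43 ± 0.24 in Yap/Taz KO + CCl4 and 10.83 ± 0.07 in ctrl + CCl4 (SD, n = 3), with no overlap between libraries. Of the markers of other cells, 11 of 12 macrophage genes (median -0.28) and 7 of 8 monocyte and neutrophil genes (median -0.77) had negative log2 fold changes, and 7 of 10 stellate genes (median 0.07) and 6 of 10 endothelial genes (median 0.09) positive ones. The part of these markers in the result was not tested.

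In uninjured hepatocytes (Yap/Taz KO over ctrl) no member passed either. The edgeR test called 0 members and 0 of all genes tested (0%). Unadjusted p-values under 0.05 were found for 1020 genes, among them 3 sterol and 2 fatty acid arm genes. DESeq2 called 21 genes higher and 18 lower, again no member. The log2 fold change was positive in 11 of 19 sterol genes, with a median of 0.10, and in 10 of 15 fatty acid genes, with a median of 0.18. It was positive in 5062 of all 10780 genes, with a median of -0.03. Markers of other cells were mostly lower in Yap/Taz KO, with a negative log2 fold change in 12 of 12 macrophage genes (median -1.05), 7 of 8 monocyte and neutrophil genes (median -2.48), 9 of 10 stellate genes (median -0.75), 9 of 10 endothelial genes (median -0.44) and 4 of 4 erythroid genes (median -3.91). Without ctrl replicate 1, 11 of 19 sterol genes (median 0.06) and 10 of 15 fatty acid genes (median 0.23) were positive. The part of these markers in the members' values was not tested. With library totals 8 of 19 sterol and 8 of 15 fatty acid genes were positive. Yap/Taz KO libraries lay above ctrl for Fdps, Cyp51 and Scd1, where 5.81% of the genes tested did, and below ctrl for Insig1, where 4.92% did. Scd1 averaged 6867 ± 899 CPM in Yap/Taz KO and 3698 ± 1457 CPM in ctrl, at 0.89 ± 0.33 (SE; edgeR unadjusted p = 0.0164, adjusted p = 0.449). Insig1 averaged 72.8 ± 16.7 CPM in Yap/Taz KO and 121 ± 29.6 CPM in ctrl, at -0.72 ± 0.27 (SE; edgeR unadjusted p = 0.0172, adjusted p = 0.449). Fdps was at 0.77 ± 0.27 (SE; edgeR unadjusted p = 0.0118, adjusted p = 0.432). Cyp51 averaged 312 ± 20.3 CPM in Yap/Taz KO and 196 ± 10.4 CPM in ctrl, at 0.67 ± 0.24 (SE; edgeR unadjusted p = 0.0141, adjusted p = 0.449). Srebf1 averaged 80.2 ± 25.2 CPM in Yap/Taz KO and 170.5 ± 122 CPM in ctrl, with overlap, at -1.08 ± 0.43 (SE; edgeR unadjusted p = 0.0229, adjusted p = 0.476). Without the low-count filter Scd1 passed at 0.91 (edgeR adjusted p = 0.0131) and Srebf1 at -1.05 (edgeR adjusted p = 0.0229), while in the 18 other alternatives the adjusted p was 0.206 to 0.934 for Scd1 and 0.229 to 0.934 for Srebf1.

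**Figure D4:**
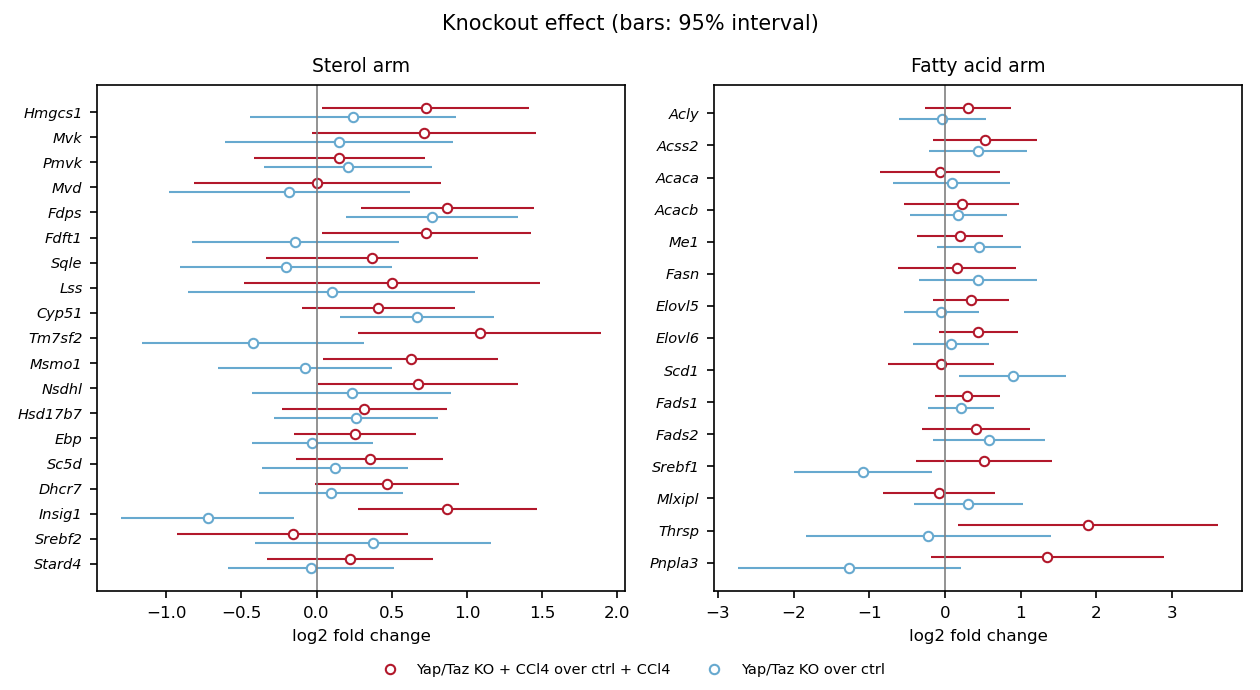
Log2 fold change of each of the 34 tested genes with knockout, after injury (Yap/Taz KO + CCl4 over ctrl + CCl4) and without injury (Yap/Taz KO over ctrl), by arm, with 95% intervals; open points did not pass an edgeR adjusted p of 0.05. After injury 18 of 19 sterol genes lie right of 0, and without injury 11 of 19.

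Whether the fall with injury differed between genotypes was tested as the difference of the 2 log2 fold changes, knockout minus control. The edgeR test called 0 members and 0 of all genes tested (0%). Of all genes tested 874 had an unadjusted p under 0.05, among them 2 sterol and 2 fatty acid arm genes, and DESeq2 called 8 genes higher and 3 lower. The larger number of sterol calls in control hepatocytes is not shown to be a difference between genotypes. Insig1 had the smallest unadjusted p of the members, with a difference of 1.59 ± 0.39 (SE; edgeR unadjusted p = 0.000969, adjusted p = 0.533). Tm7sf2 was at 1.51 ± 0.51 (SE; edgeR unadjusted p = 0.0103, adjusted p = 0.548). Srebf1 was at 1.599 ± 0.60 (SE; edgeR unadjusted p = 0.0177, adjusted p = 0.589). For Pnpla3 it was 2.62 ± 1.00 (SE; edgeR unadjusted p = 0.0192, adjusted p = 0.589), and all 4 differences are towards less decline in knockout hepatocytes. The value of Pnpla3 rests on few counts, with 63, 11 and 14 in Yap/Taz KO + CCl4 and 16, 5 and 11 in ctrl + CCl4. In Yap/Taz KO there were 17, 11 and 21 counts, and in ctrl 54, 55 and 8. Scd1 was at -0.94 ± 0.46 (SE; edgeR unadjusted p = 0.0605, adjusted p = 0.624), a larger fall in knockout hepatocytes. The difference was positive in 16 of 19 sterol genes, with a median of 0.37, and in 9 of 15 fatty acid genes, with a median of 0.08, against 5815 of all 10780 genes, with a median of 0.07. Most marker lists had the same sign: the difference was positive in 9 of 9 hepatocyte genes (median 0.42), 10 of 12 macrophage genes (median 0.80), 9 of 10 stellate genes (median 0.72), 8 of 10 endothelial genes (median 0.80), 6 of 8 monocyte and neutrophil genes (median 1.61) and 4 of 4 erythroid genes (median 3.78). It was negative in 3 of 3 cholangiocyte genes (median -0.61). Without ctrl replicate 1, the library that stood apart, the difference was positive in 15 of 19 sterol genes, with a median of 0.34. The part of these markers in the result was not tested. For Acss2 and Acacb, the 2 largest falls of the enzymes that supply acetyl-CoA and malonyl-CoA, the difference was 0.09 (95% interval -0.84 to 1.02) and 0.05 (95% interval -0.92 to 1.02). Without the low-count filter Insig1, at 1.57 (edgeR adjusted p = 0.0274), Srebf1, at 1.57 (edgeR adjusted p = 0.018), and Thrsp, at 2.08 (edgeR adjusted p = 1.87e-05), passed. In the 17 other alternatives the adjusted p was 0.121 to 0.923 for Insig1, 0.237 to 0.923 for Srebf1 and 0.343 to 0.941 for Thrsp.

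Within ctrl + CCl4 the sterol genes were higher together in replicate 1. Their median SD of log2 CPM between libraries was 0.21 in Yap/Taz KO + CCl4 and 0.44 in ctrl + CCl4, against 0.26 in Yap/Taz KO and 0.34 in ctrl, while that of all genes tested was 0.29 in Yap/Taz KO + CCl4 and 0.30 in ctrl + CCl4, against 0.38 in Yap/Taz KO and 0.52 in ctrl. Their mean deviation from the group mean was 0.43 log2 CPM in ctrl + CCl4 replicate 1, with 18 of 19 genes above their group mean, and -0.23 and -0.20 in replicates 2 and 3. The fatty acid arm did not shift as one within that group: its mean deviations were 0.00, -0.10 and 0.10 for replicates 1, 2 and 3, although its median SD of 0.48 was as high.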

How the data were processed

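The members and the gene lists used beside them were chosen with earlier results of these data known. RNA was read as 3' tags (QuantSeq FWD, Lexogen) from sorted hepatocytes, per the labels' protocols. The deposited table holds raw counts by gene symbol, with no scaling by the authors, as its values show. The submitters' processing notes name FastQC, cutadapt, STAR 2.6.1d, mm10 and GRCm38, with no roles. The sources state no counter, annotation, strand setting or use of molecular identifiers. Replicates within a group differed by more than sampling noise, with a chi-square per degree of freedom of 9.32 to 29.9.

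The count test was edgeR 4.0.16 (R 4.3.3): filterByExpr (minimum count 10, minimum total 15), TMM factors, 1 coefficient for each of the 4 groups over all 12 libraries, and quasi-likelihood F tests with Benjamini-Hochberg adjustment over 10780 genes at 0.05. Intervals (95%) are not adjusted. Mean levels over genes used log2 CPM with a prior count of 2. Of 37141 symbols, 36460 (98.17%) matched GENCODE M21, which gave gene overlaps. Beside the overlaps named above, predicted genes overlap Srebf2, Elovl6 and Pnpla3 on the same strand, so their counts are uncertain too. Promoter windows came from RefSeq (GRCm38.p6).

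All members are named. Per role group, up to 4 genes with the smallest adjusted p in each injury response have values per library, and at most 2 genes of each neighbouring list are named, beside G6pdx, chosen after its value was seen. Marker lists are given as counts and summed levels, and their most abundant genes, which the rule also took, are not reported singly here. A few genes of the neighbouring and marker lists are counted but not named here. The fit was checked on simulated counts. Alternatives were library totals or RLE factors in place of TMM, DESeq2 1.42.0, keeping every gene, keeping genes at 5 CPM in 3 libraries, fits of the 6 libraries compared, a replicate block, and each library left out.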

Additional observations from a re-analysis of the deposited data

How the results depend on the processing

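No call of a member changed direction under any alternative run: of 323 repeats of the 17 calls in knockout hepatocytes 273 stayed past the threshold and 50 did not, and of 551 repeats of the 29 calls in control hepatocytes 463 did and 88 did not. Past it in every alternative were 9 of the 17 and 12 of the 29 calls. With library totals the calls in knockout hepatocytes were 1814 genes higher and 406 lower, with 1 sterol gene lower, and in control hepatocytes 1974 higher and 698 lower, with 3 sterol and 9 fatty acid genes lower. That scaling moved the median of all genes by 0.37 in knockout and 0.36 in control hepatocytes, by -0.14 in both knockout effects, and by 0.00 in the difference between the injury responses. In the fit of the 6 control libraries alone, 9 sterol genes were called lower. Leaving out each library in turn gave 625 to 1284 genes higher and 516 to 1047 lower in knockout hepatocytes and 763 to 1707 higher in control hepatocytes. Over the same fits 2 to 7 sterol genes were called lower in knockout hepatocytes and 5 to 15 in control hepatocytes. These fits have fewer libraries, and the cause of the other changes was not tested.

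The knockout effects gave no call in the reported fit. After injury, calls among all genes were 87 higher and 22 lower without the low-count filter (1 fatty acid gene higher, Thrsp), 24 higher and 1 lower with DESeq2, and 2 higher and 3 lower with the 6 libraries compared. In uninjured hepatocytes they were 75 higher and 135 lower without the filter (1 fatty acid gene higher and 1 lower, Scd1 and Srebf1), and 21 higher and 18 lower with DESeq2. The difference between the injury responses gave 100 higher and 15 lower without the filter (1 sterol and 2 fatty acid genes higher), and 8 higher and 3 lower with DESeq2. With 1 library left out, the knockout effect after injury called 0 to 3 genes higher and 0 to 1 lower, and that in uninjured hepatocytes 0 to 1 higher and 0 to 1 lower.

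Replicate numbers recur in the 4 groups, but same-numbered libraries did not deviate together in every pair: the correlation of their deviations from group means lay between -0.152 and 0.323, with the highest values in replicates 1 (0.323) and 2 (0.244) of Yap/Taz KO and ctrl. With a replicate block, 6 sterol and 12 fatty acid genes were called lower in knockout hepatocytes, and 16 sterol and 14 fatty acid genes in control hepatocytes. The other alternatives named under processing kept these counts within 1.5 times of those reported, as did promoter windows read before the start alone for the counts of members with each motif. The looser letters of the sterol regulatory element were found in 3 members against 2, and in 3.15% of all genes against 1.44%.

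With 3 libraries a group and a biological coefficient of variation of 0.323 over all 12 libraries (0.372 in the uninjured and 0.241 in the injured ones), small changes in the sterol arm are hard to detect.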
